A study of Mus musculus with 4 samples.

Results

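Mitochondria carry their own small circular genome, and the proteins that copy, transcribe, cut and degrade it or its RNAs are encoded in the nucleus. The nuclear genes for this machinery were examined in group 2 innate lymphoid cells (ILC2s), lymphocytes of the airway mucosa that lack antigen receptors and secrete type 2 cytokines when IL-33 reaches them. The set holds 38 of the 22554 genes of the count table, taken from the table by a list of gene names, and it lies on 17 chromosomes. Its members cover mtDNA copying, packaging and transcription, RNA processing, RNA stability and mitochondrial biogenesis. The 4 libraries were made from lung ILC2s of BALB/c mice aged 6 weeks, sorted and cultured with IL-2, IL-7 and IL-33. There were 2 vehicle libraries, called Control in the labels, and 2 libraries of cells given compound 5D, an inhibitor of the Orai channels through which calcium enters these cells. No genetic change was made in either group, no dose of 5D is stated in the labels, and the solvent of the compound was DMSO.

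As background, the chain runs as follows. The PGC-1 coactivators (Ppargc1a, Ppargc1b and Pprc1) and the transcription factors Nrf1 and Gabpa raise the nuclear genes for mitochondrial proteins. Tfam wraps and bends mtDNA, and with it the RNA polymerase Polrmt and the factor Tfb2m start transcription of long RNAs that carry rRNAs, mRNAs and tRNAs in a row. The tRNAs are cut out at both ends, which frees the mRNAs and rRNAs between them, and the mRNAs are then tailed, held stable or degraded. In activated lymphocytes the products of mtDNA are needed for respiration, and the paper on these cells asked how blocking Orai channels affects mitochondrial function. The comparison here asks whether the transcripts of the nuclear machinery differed between 5D and vehicle.

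Promoters are shown first because they are a feature of the members that the choice of names did not use. RefSeq promoters, running from 250 bases before to 50 bases after the transcription start on GRCm38.p6, were matched by symbol for 34 of the 38 members. The RefSeq start of Pprc1 lay 11653 nt from the start of the gene in the count table. Next farthest were Fastkd1 (911 nt), Mgme1 (241 nt), Tfam (237 nt), Gabpa (199 nt) and Ssbp1 (116 nt). The motifs were searched on both strands. The GABPA motif CCGGAAG, the core of the site that Gabpa and other ETS factors bind, was found in 15 of the 34 promoters (44.1%). It was found in 8.86% of all 32851 RefSeq promoters of that length and in 17.03% of the 13828 that belong to a tested gene. The NRF1 core GCGCANGCG was found in 5 (14.7%), against 6.25% of all promoters and 12.6% of those of tested genes. The YY1 motif AAGATGGCG was in 4 (11.8%, against 1.40% and 2.79%), the E-box CACGTG in 3 (8.82%, against 7.15% and 9.76%) and the CRE TGACGTCA in 2 (5.88%, against 1.79% and 2.93%). Matches of the NRF1 core can overlap each other, as they do in Polrmt. Each member was read at the promoter nearest its start in the count table, while the background shares count every promoter. These shares were not matched to the members' levels of expression. A match describes the letters and not a bound site.

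The promoter of Tfam is shown as that of the packaging protein. Those of Polrmt, Slirp and Tfb2m were added after the values were seen, as an example with both motifs, the promoter with the most GABPA matches, and the member with the smallest p. Each runs 5′ to 3′ on the strand of the gene from 120 bases before to 30 bases after the RefSeq start, and capitals mark the GABPA motif or the NRF1 core on either strand.
Tfam, chr10:71238015-71238164, minus strand: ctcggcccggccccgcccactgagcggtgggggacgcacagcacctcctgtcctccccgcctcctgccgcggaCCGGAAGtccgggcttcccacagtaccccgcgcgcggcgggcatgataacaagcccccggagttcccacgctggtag
Polrmt, chr10:79746552-79746701, minus strand: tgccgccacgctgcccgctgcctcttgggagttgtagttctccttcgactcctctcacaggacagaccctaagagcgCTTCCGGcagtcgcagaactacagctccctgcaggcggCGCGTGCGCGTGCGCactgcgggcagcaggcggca
Slirp, chr12:87443776-87443925, plus strand: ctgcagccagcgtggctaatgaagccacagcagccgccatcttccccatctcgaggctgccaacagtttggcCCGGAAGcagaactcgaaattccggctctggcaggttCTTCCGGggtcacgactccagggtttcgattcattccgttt
Tfb2m, chr1:179546247-179546396, minus strand: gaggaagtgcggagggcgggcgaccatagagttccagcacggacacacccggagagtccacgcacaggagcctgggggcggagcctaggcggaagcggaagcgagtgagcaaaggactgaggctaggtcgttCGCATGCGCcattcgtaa
The GABPA match began at -47 from the RefSeq start in Tfam and at -43 in Polrmt. In Polrmt the NRF1 core began at -5 and again at 2, across the start itself. Slirp, the partner of Lrpprc in holding mitochondrial mRNAs stable, had GABPA matches at -146, -48 and -11, of which the first lies outside the stretch printed. Tfb2m had no GABPA match in its 300 bases and an NRF1 core at 13.

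**Figure D1:**
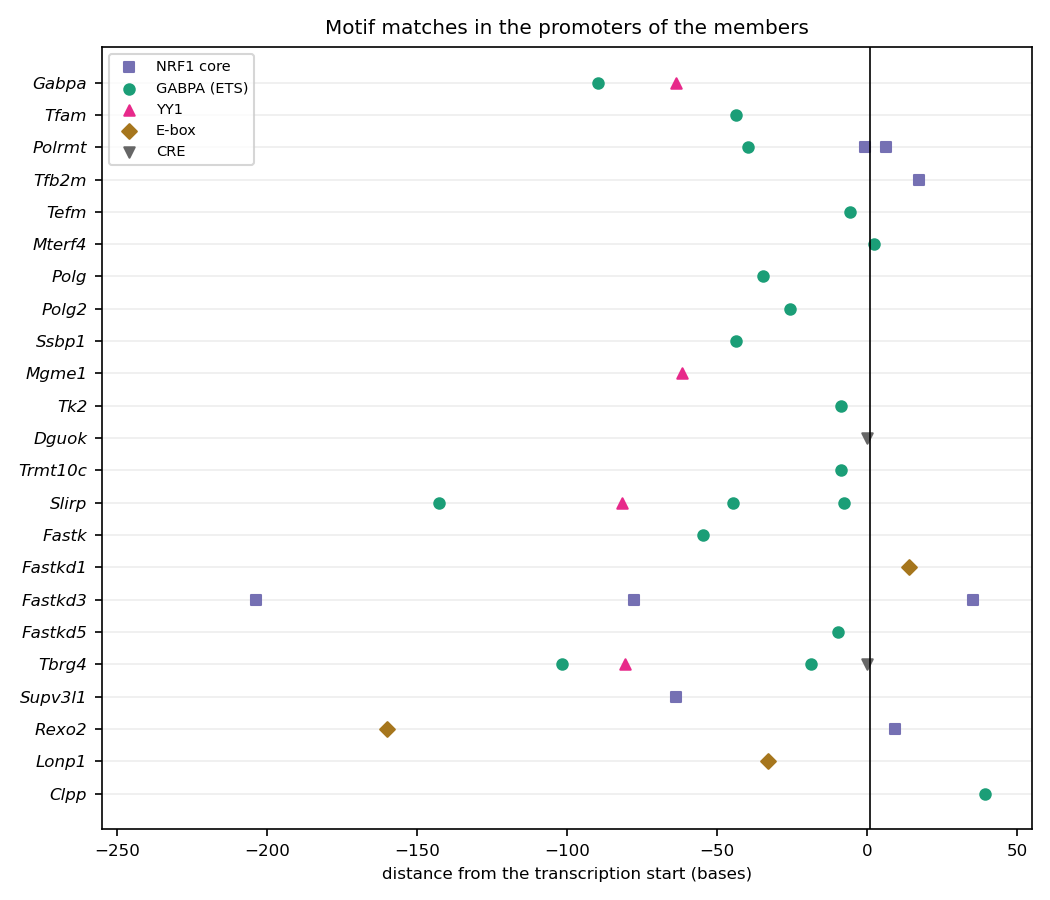
Motif matches in the promoters of the members, for the 23 members with at least 1 match; the x axis is the distance from the transcription start in bases and the vertical line the start, and each symbol is the middle of 1 match. The GABPA matches lie mostly in the last bases before the start, and those of Gabpa, Slirp and Tbrg4 reach farther upstream.

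Levels were read as normalized CPM (counts scaled to a common library size), which are not corrected for gene length and are compared between libraries of the same gene. Library totals were 23239853 and 20096555 for vehicle and 26912708 and 28697265 for 5D. All 10 ILC2 markers listed, Gata3 and Il1rl1 among them, were above 100 CPM in every library. Of 32 markers of other cell types 26 were in the table, 17 of them were at or below 1 CPM in every library and 5 at 0 in all. Their summed level was 83.6 to 87.2 CPM with vehicle and 80.8 to 82.5 CPM with 5D, most of it from Epcam, Cd3g and Pecam1, and its part in the results was not tested. Nothing in the labels says that libraries of a group came from separate mice or cultures. The p-values therefore rest on the spread between these libraries, shared in part over all tested genes, and that spread may be technical. In bulk RNA, fewer cells of a type and less RNA per cell cannot be told apart.

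No member reached the threshold for a difference between 5D and vehicle. By edgeR's quasi-likelihood test 0 of the 37 tested members had an unadjusted p under 0.05 in either direction, while 3.84% of all 17650 tested genes were called lower and 3.5% higher with 5D. After Benjamini-Hochberg adjustment over all genes, 0 members and 0.0963% of all genes in either direction were called, and member values ran from adjusted p = 0.712 to 0.998. DESeq2 and limma-voom also gave 0 members at an unadjusted p under 0.05. The log2 fold change was below 0 for 22 members and above 0 for 15, with a median of -0.015 beside -0.0016 over all genes tested. It ran from -0.32 for Top1mt to 0.15 for Mgme1, and lay within 0.1 of 0 for 26 members and within 0.2 of 0 for 35. The 9730 tested genes within the members' range of mean count had a median size of log2 fold change of 0.085, and the members had 0.076. The groups did not overlap in 10 members. In 7 of them the pair of 5D libraries was the lower (18.8% of all genes), and in 3 the higher (18.7%). They are 27.0% of the members tested, and 37.6% of all genes had such separated groups. At this size of 2 against 2, exact two-sided permutation for 1 gene goes no lower than 0.333.

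The intervals give the size of change that these libraries leave possible. The 95% interval of the log2 fold change lay within a 1.5-fold change in both directions for 35 of the 37 members, and within a 2-fold change for all 37. The exceptions at 1.5-fold were Top1mt (-0.69 to 0.048) and Fastkd1 (-0.59 to 0.65). The distance from the estimate to either end of the interval was between 0.10 and 0.62, with a median of 0.24. These widths reflect the counts and a spread that edgeR estimates partly from the 2 libraries a group and partly from all tested genes. The degrees of freedom, own and shared together, had a median of 11.4 over the tested genes. A p above the threshold does not show that a gene was equal in both groups. Tfb2m, with a lower bound of -0.58, lay just inside the 1.5-fold limit of 0.585 on the log2 scale. With the counts of its pseudogene Gm1818 added the bound was -0.59, and by DESeq2 it was -0.61. Without vehicle library 2 it was -0.73, and without 5D library 1 it was -0.74. Each of these bounds was outside the limit. Across the alternatives 28 to 35 members lay within 1.5-fold, with 28 without vehicle library 2 and 31 by DESeq2, and 36 or 37 lay within 2-fold.

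**Figure D2:**
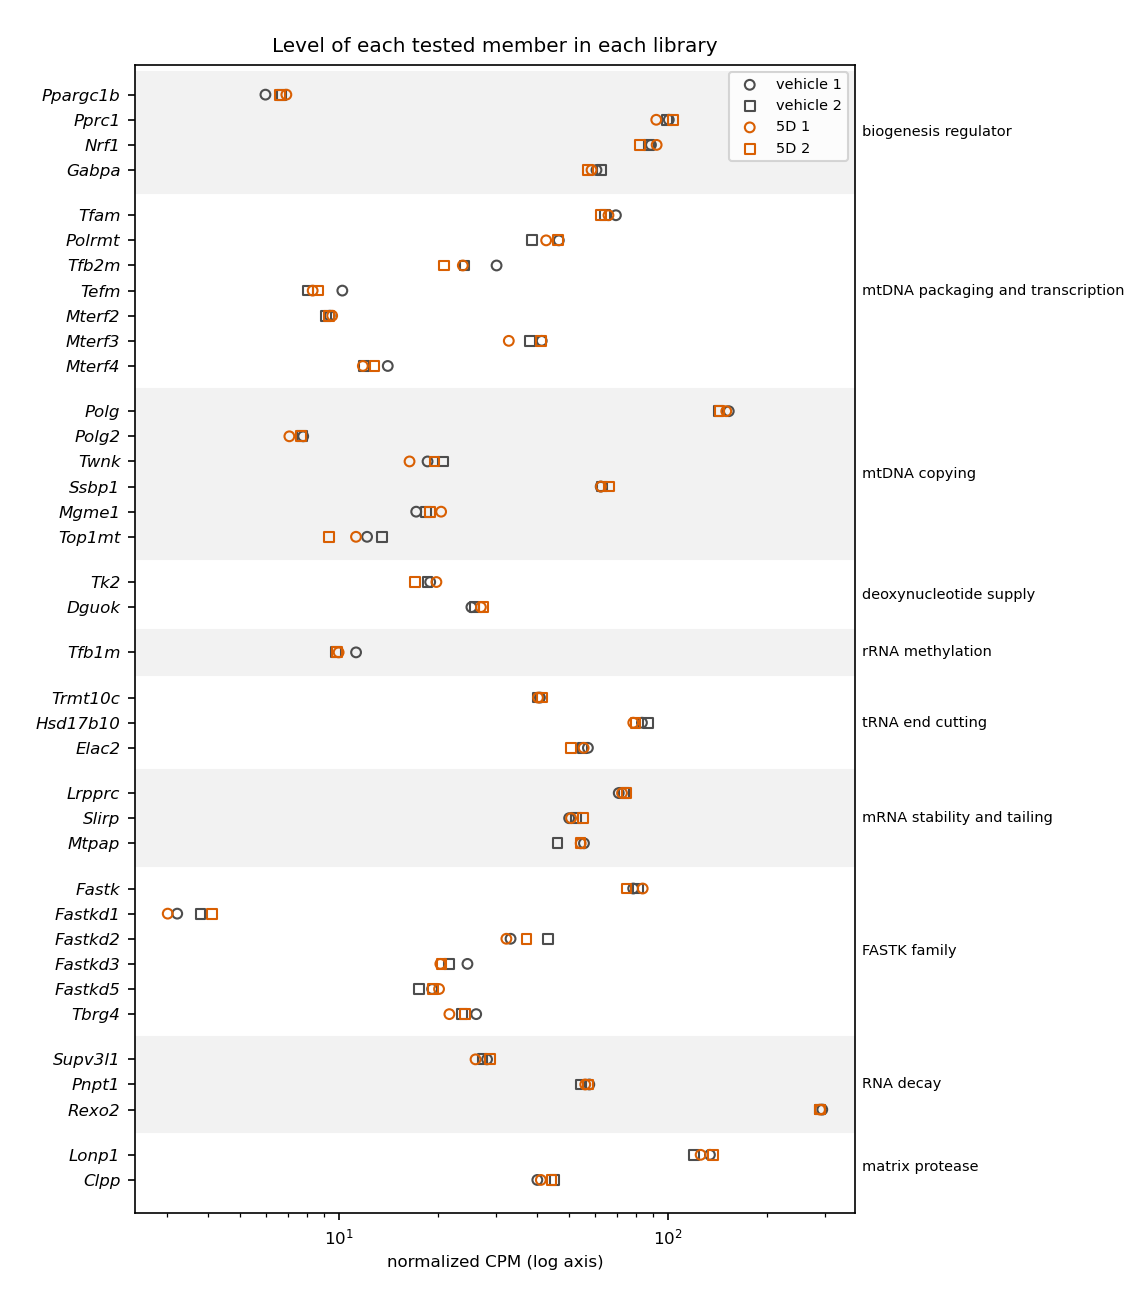
Level of each tested member in each library, grouped by role; the x axis is normalized CPM on a log scale, gray symbols are the 2 vehicle libraries and orange symbols the 2 5D libraries. The libraries of each gene sit close together over a range of levels from 3.02 CPM in Fastkd1 to 294 CPM in Rexo2.

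Among the biogenesis regulators, 4 of 5 were tested and none was called. Ppargc1a, the PGC-1α coactivator known from muscle, liver and brown fat, had 3 counts in vehicle library 1 and 0 in the other three libraries, below the filter. A count of 0 allows up to 3 counts, which is 0.105 to 0.150 CPM in these libraries, so no fold is given. Its relative Ppargc1b was present at 5.98 and 6.70 CPM with vehicle and 6.93 and 6.61 with 5D. The groups overlapped, and the log2 fold change was 0.096 ± 0.20 (SE). Pprc1, the PGC-1-related coactivator of growing cells, stood at 100.5 and 99.5 CPM with vehicle and 92.1 and 103.3 with 5D. The 5D libraries lay on either side of the vehicle libraries, with a log2 fold change of -0.034 ± 0.073. Nrf1 had 88.1 ± 0.911 CPM (SD, n = 2) with vehicle and 87.2 ± 7.25 with 5D. Gabpa, the DNA-binding part of the GABP factor, was at 60.6 and 62.8 CPM against 58.5 and 57.0. Its groups did not overlap, but the log2 fold change of -0.094 ± 0.080 had an unadjusted p = 0.262 by edgeR.

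Of the 7 genes for packaging and transcription of mtDNA none was called, 5 were below 0 and 2 above. Tfam (chr10:71225464-71238280 in GENCODE M21) had 69.4 and 64.3 CPM with vehicle and 65.9 and 62.6 with 5D. The groups overlapped, and the log2 fold change was -0.058 with a 95% interval from -0.24 to 0.12, which in percent is -15.0% to 8.55%. Polrmt had 46.6 and 38.6 CPM with vehicle and 42.6 and 46.3 with 5D, so that the vehicle libraries were the farthest apart and enclosed those of 5D. Tfb2m, which opens the DNA for Polrmt, lies at chr1:179528055-179546267 and had the smallest p of the set. Its levels were 30.1 and 24.1 CPM with vehicle and 23.8 and 20.9 with 5D. Vehicle library 1 stood above the rest, and vehicle library 2 and 5D library 1 nearly met. The log2 fold change of -0.28 ± 0.14 had an unadjusted p = 0.0631 and an adjusted p = 0.712 by edgeR. Without vehicle library 1 it was -0.11, and without vehicle library 2 it was -0.43 with an unadjusted p = 0.0042 and an adjusted p = 0.254, so the value depended on which vehicle library was kept. A fit with the replicate number as a block gave an unadjusted p = 0.0391. Tfb2m also shares 1187 nt at 99.3% identity with the pseudogene Gm1818, and with the counts of Gm1818 added the log2 fold change was -0.29.

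Tefm, the elongation factor, had the lowest read level of this group, at 10.2 and 8.05 CPM with vehicle and 8.33 and 8.64 with 5D. The 5D libraries lay between the vehicle libraries. The 3 members of the MTERF family, DNA and RNA binding proteins of the matrix, had log2 fold changes of 0.027 (Mterf2), -0.10 (Mterf3) and -0.079 (Mterf4), each with overlapping groups. For Mterf3, 5D library 1 was low at 32.8 CPM while the other three libraries were between 38.1 and 41.3.

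The 6 genes for copying mtDNA held both ends of the set, and none was called. Polg, the catalytic subunit of the mtDNA polymerase, had 152.9 and 142.3 CPM with vehicle and 150.3 and 143.4 with 5D. The 5D libraries lay between the vehicle libraries, and the log2 fold change was -0.0083 with an interval from -0.14 to 0.13. Polg2, its accessory subunit, had 7.79 and 7.75 CPM with vehicle and 7.07 and 7.66 with 5D. These were separated by a margin much smaller than the gap between the 5D libraries. Top1mt (chr15:75657035-75678800), the topoisomerase that relaxes mtDNA, had the lowest log2 fold change, -0.32 ± 0.17. Its levels were 12.2 and 13.5 CPM with vehicle and 11.3 and 9.34 with 5D. The groups did not overlap, with an unadjusted p = 0.0822 and an adjusted p = 0.740 by edgeR. Without 5D library 1 its log2 fold change was -0.46 with an unadjusted p = 0.0483, and without 5D library 2 it was -0.19. Mgme1, the exonuclease that trims replication ends, was at the other end, with 17.2 and 18.4 CPM against 20.5 and 19.0 and a log2 fold change of 0.15 ± 0.13. The helicase Twnk was at -0.13 and the single-stranded DNA binding protein Ssbp1 at 0.040, both with overlapping groups. Ssbp1 shares 447 nt at 97.8% identity with the pseudogene Gm12115, so its reads may be split.

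The 2 kinases that supply deoxynucleotides inside the organelle had log2 fold changes of 0.094 (Dguok) and -0.027 (Tk2). Dguok, which starts the salvage of purine deoxynucleosides, had 25.3 and 25.8 CPM with vehicle and 27.0 and 27.5 with 5D. These groups were separated and close within themselves, and the unadjusted p was 0.409 by edgeR. Tk2, its counterpart for pyrimidines, had 18.9 and 18.6 CPM with vehicle and 19.8 and 17.1 with 5D, so the 5D libraries enclosed those of vehicle.

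Processing enzymes for rRNA and tRNA gave no call. Tfb1m, a paralog of Tfb2m that methylates the small rRNA, had 11.3 and 9.79 CPM with vehicle and 9.99 and 9.86 with 5D, with a log2 fold change of -0.088 ± 0.17. Of the subunits of the enzyme that cuts tRNA 5′ ends, Hsd17b10 had 83.3 and 87.0 CPM with vehicle and 78.4 and 79.7 with 5D. The groups did not overlap, and the log2 fold change of -0.11 ± 0.070 had an unadjusted p = 0.154 by edgeR. Its partner Trmt10c had 40.8 and 40.2 CPM against 40.3 and 41.4, with a log2 fold change of 0.012 ± 0.093. Elac2, which cuts the 3′ ends, was at -0.079 with an interval from -0.27 to 0.11.

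All 3 genes for mRNA stability and tailing were above 0, and none was called. Lrpprc, which binds and holds mitochondrial mRNAs, had 70.8 and 73.6 CPM with vehicle and 72.5 and 74.8 with 5D. Its partner Slirp had 50.1 and 52.6 CPM with vehicle and 50.7 and 55.2 with 5D. The libraries of both genes interleaved, with log2 fold changes of 0.029 ± 0.074 and 0.047 ± 0.089. The exons of Slirp overlap those of Snw1 on the opposite strand over 93.9% of their length, and without a stated strand setting reads of the pair cannot be told apart. Mtpap, the poly(A) polymerase of the matrix, had 0.091 ± 0.10, and its vehicle library 2 was low at 46.2 CPM while the other three were between 54.2 and 55.5.

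Of the 6 FASTK family genes, which code for RNA binding proteins of mitochondrial RNA granules, 4 were below 0, 2 above and none called. Fastk had 78.4 and 81.1 CPM with vehicle and 83.8 and 74.7 with 5D. The 5D libraries enclosed those of vehicle, and the log2 fold change was -0.0083 ± 0.079. Fastkd1, the shallowest tested member with 351 counts over the 4 libraries, had 3.23 and 3.798 CPM against 3.02 and 4.13. It had the widest interval of the set. Fastkd2 was at -0.14 ± 0.13, with vehicle library 2 at 43.2 CPM and the other three between 32.3 and 37.1. Without vehicle library 1 its log2 fold change was -0.32 with an unadjusted p = 0.0162, and without vehicle library 2 it was 0.060. Fastkd3 at -0.18 ± 0.12 and Fastkd5 at 0.10 ± 0.13 had groups that did not overlap, in opposite directions. The exons of Fastkd5 overlap those of Ubox5 on the same strand over 65.2% of their length. Tbrg4, also named Fastkd4, was at -0.12 ± 0.12.

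RNA decay genes were the closest to 0 as a group, from -0.019 to 0.014. Rexo2 (chr9:48468512-48480623), the oligoribonuclease that clears short RNA fragments, had 294.1 and 290.2 CPM with vehicle and 289.7 and 290.0 with 5D. The log2 fold change was -0.011 ± 0.047, and the interval from -7.59% to 6.505% was the narrowest of the set. Rexo2 was also highest per length, with 270.2 CPM per kb of its principal transcript and 86.0 CPM per kb of merged exons, followed on both scales by Hsd17b10 with 85.4 and 63.3. The helicase Supv3l1 had 28.2 and 27.3 CPM with vehicle and 26.01 and 28.8 with 5D. Its partner nuclease Pnpt1 was at 56.0 ± 2.39 CPM (SD, n = 2) with vehicle and 56.5 ± 0.706 with 5D.

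The matrix proteases were both above 0. Lonp1, which degrades free Tfam among other substrates, had 134.0 and 119.6 CPM with vehicle and 125.6 and 137.1 with 5D, with a log2 fold change of 0.050 ± 0.073. Clpp had 40.1 and 45.2 CPM with vehicle and 41.1 and 44.2 with 5D, and its log2 fold change was 0.0018 ± 0.10. In both genes the groups overlapped.

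**Figure D3:**
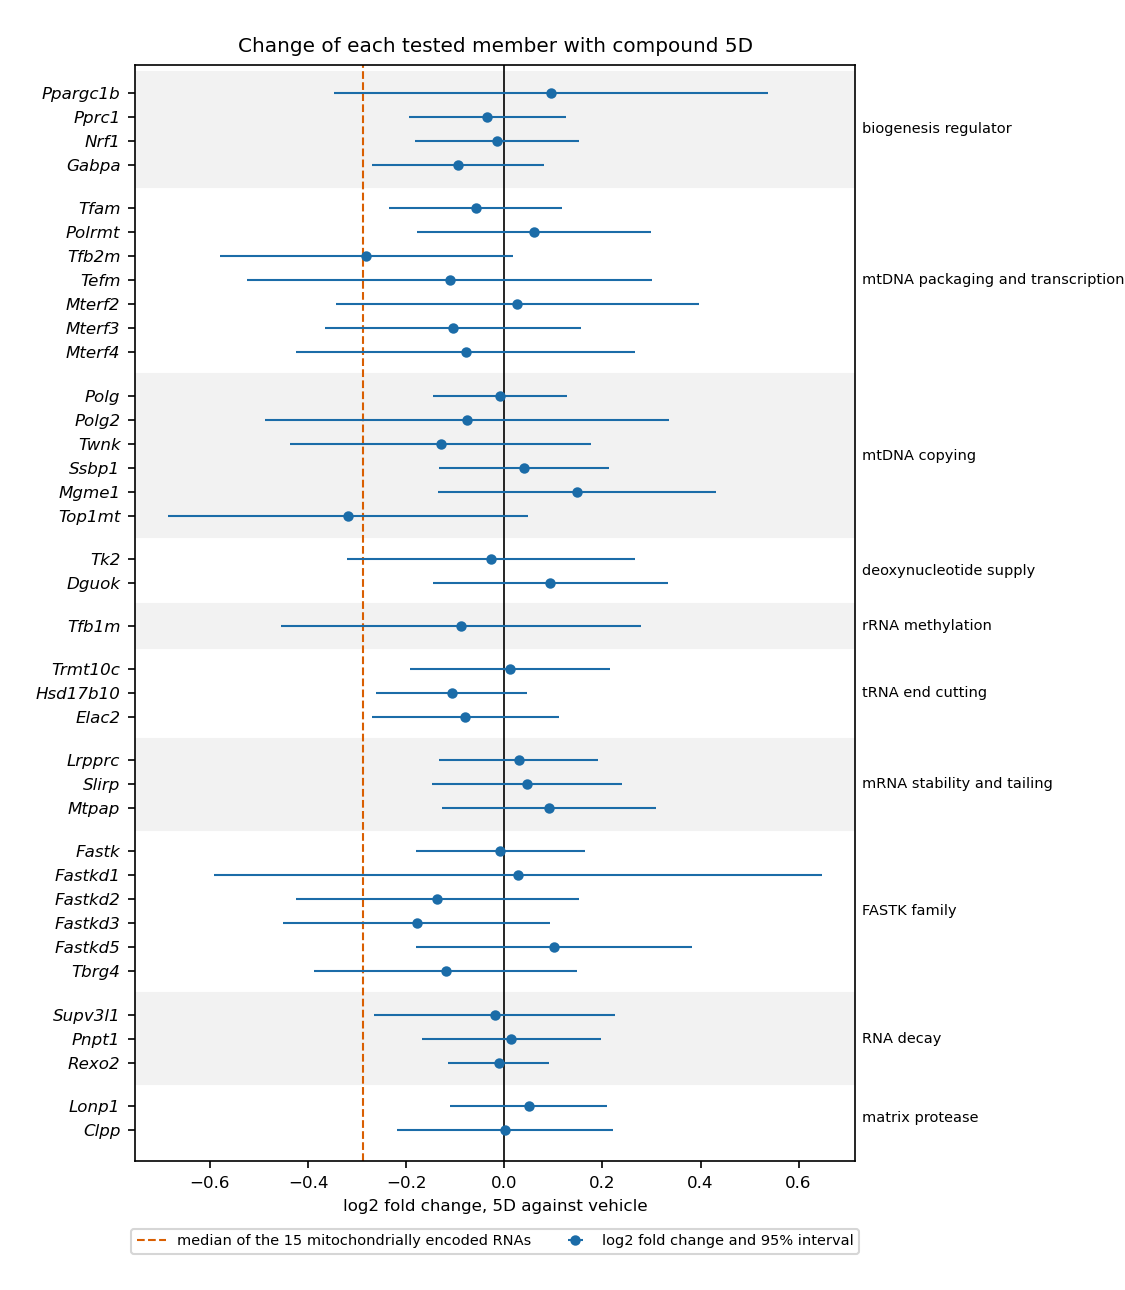
Log2 fold change of each tested member, 5D against vehicle, with its 95% interval from edgeR; the solid line marks no change and the dashed line the median of the 15 mitochondrially encoded RNAs (-0.29). Each of the 37 intervals crosses 0, and those of Top1mt and Fastkd1 reach past a 1.5-fold change.

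Medians lay near 0 with and without the promoter motifs. The 15 members with a GABPA motif had a median log2 fold change of -0.0083, from -0.12 to 0.10, and the 18 tested members with a promoter but no such motif had -0.017. For the NRF1 core the medians were -0.019 with and -0.012 without. These are descriptions, and no test was run on them.

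The summed level of the 37 tested members was 1876 ± 33.7 CPM (SD, n = 2) with vehicle and 1852 ± 15.98 with 5D. The RNAs that the machinery acts on were lower with 5D in the same libraries. Of 15 listed mitochondrially encoded RNAs, 13 mRNAs and 2 rRNAs, all 15 had a log2 fold change below 0. Their median was -0.29, which is -18.1%, and 8887 of all 17650 tested genes were below 0. They are cut from shared long RNAs, so they are not 15 separate observations. An unadjusted p under 0.05 by edgeR was reached by 14 of them, beside 3.84% of all tested genes called lower. The exception was mt-Nd4l at unadjusted p = 0.144 by edgeR. The adjusted threshold was passed by mt-Nd2, mt-Nd4 and mt-Rnr1, beside 0.0963% of all genes in either direction. The other 11 were mt-Nd1, mt-Nd3, mt-Nd5, mt-Nd6, mt-Co1, mt-Co2, mt-Co3, mt-Atp6, mt-Atp8, mt-Cytb and mt-Rnr2, with log2 fold changes from -0.55 (mt-Rnr2) to -0.16 (mt-Co3). The summed level of all 15 was 9805 and 10650 CPM with vehicle and 8021 and 8107 with 5D. The mRNA part was 7036.5 and 6789.5 CPM with vehicle and 5902.7 and 5738.6 with 5D. The rRNA part was 2768.4 and 3860 CPM with vehicle and 2118.6 and 2368.2 with 5D. The vehicle libraries differed mainly in mt-Rnr2, at 2432.7 and 3474.5 CPM. Per CPM of the members' sum the level of all 15 was 5.16 and 5.75 with vehicle and 4.36 and 4.35 with 5D. The lower bound of the 95% interval lay above the encoded median of -0.29 for 22 of the 37 members, and for the other 15, Tfb2m and Top1mt among them, a change of that size lay inside the interval. The difference between the lists was not tested.

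A chosen list of 73 further genes of these and related processes, which does not cover the whole pathway, was read beside the members. Of these 72 were tested, 33 below 0 and 39 above. Its median was 0.0040, and its summed level was 2728 ± 5.30 CPM (SD, n = 2) with vehicle and 2710 ± 6.08 with 5D. An unadjusted p under 0.05 by edgeR was reached by 3 genes lower and 3 higher with 5D, 8.33% of the list beside 7.34% of all genes, and by 0 after adjustment. The lower genes were the RNA methyltransferase Nsun2 (-0.19, unadjusted p = 0.0037), Prorp, the nuclease that works with Trmt10c and Hsd17b10 (-0.41, unadjusted p = 0.0235), and the transcription factor Yy1 (-0.24, unadjusted p = 0.0401). Prorp had 13.0 and 14.8 CPM with vehicle and 10.1 and 10.8 with 5D, without overlap, while neither of its partners was called. The higher genes were the elongation factor Gfm1 (0.22, unadjusted p = 0.0202), the initiation factor Mtif3 (0.34, unadjusted p = 0.0226) and Angel2, a relative of the deadenylases (0.20, unadjusted p = 0.0484). No gene was called among 12 for mtDNA upkeep, 3 for transcription or 8 for ribosome assembly, of which the largest differences were Rrm2b (-0.21), Mterf1a (-0.17) and Ddx28 (-0.25). Among the 7 genes for RNA stability and decay the largest was Endog (-0.20), which was not called.

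**Figure D4:**
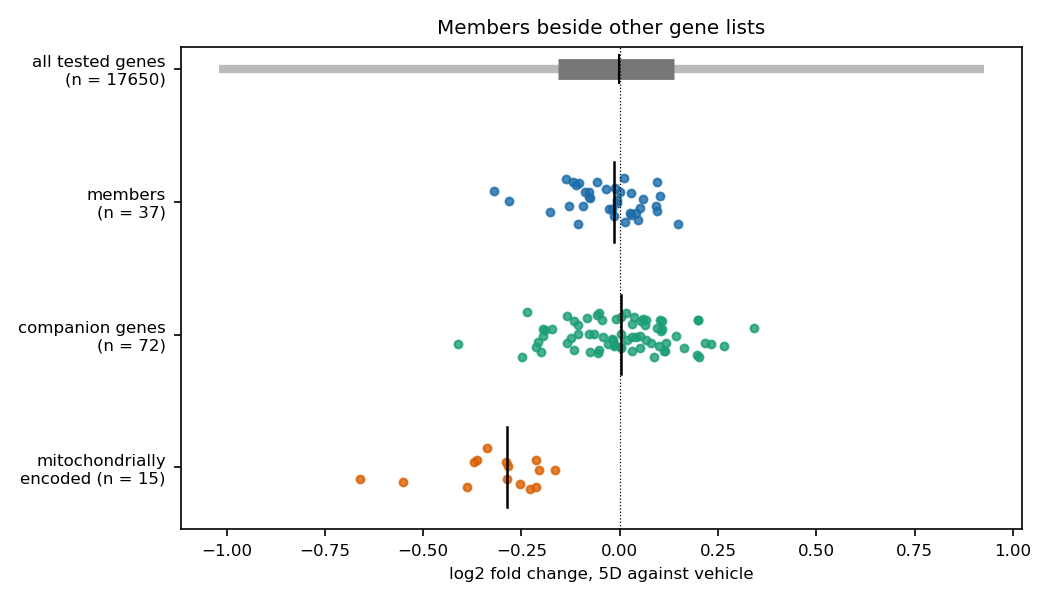
Log2 fold change, 5D against vehicle, of the members, the companion genes of the same processes and the mitochondrially encoded RNAs; each point is 1 gene and the black lines are medians, and for all tested genes the dark bar spans the quartiles and the light bar the 5th to 95th percentile. Members and companion genes are centred near 0 (-0.015 and 0.0040), and the 15 encoded RNAs all lie below it.

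**Figure D5:**
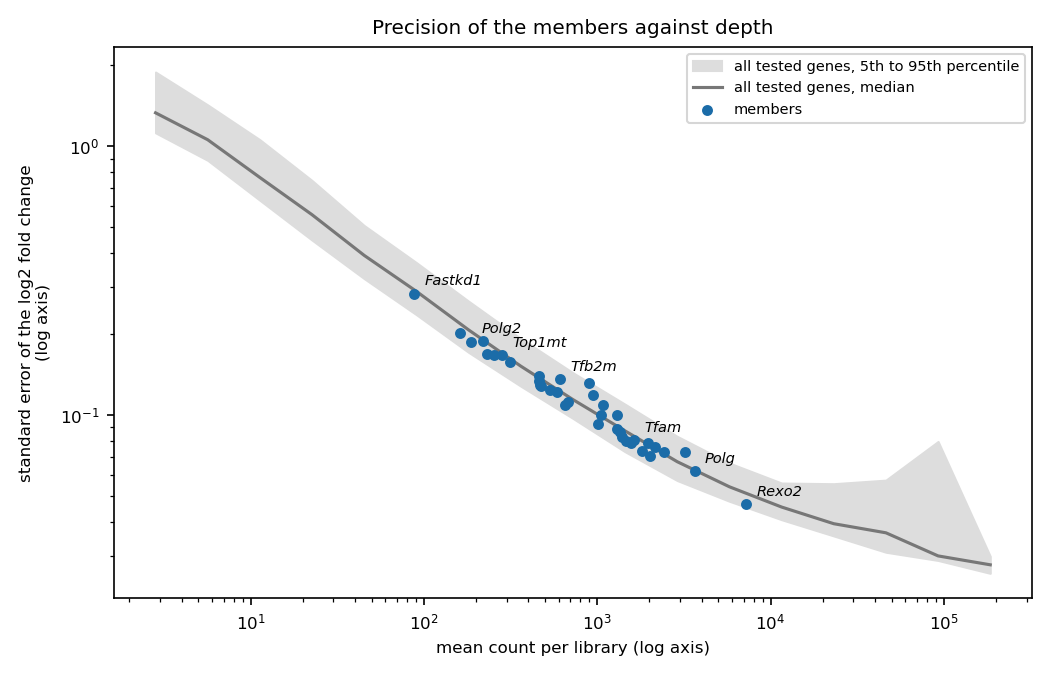
Standard error of the log2 fold change against the mean count per library, both on log axes; points are members, the line is the median of all tested genes and the band their 5th to 95th percentile. The members follow the line from Fastkd1 (SE 0.28) to Rexo2 (SE 0.047).

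Precision followed depth. The members held between 351 and 28794 counts over the 4 libraries with a median of 3787, and the standard error ran from 0.28 in Fastkd1 to 0.047 in Rexo2. In 23 members at least 1 deposited value was not a whole number. Besides Slirp and Fastkd5, the largest exon overlaps covered 35.2% of Mterf4 (Sned1), 26.1% of Fastk (Slc4a2) and 22.7% of Mterf2 (Tmem263), each on the opposite strand. Next came 18.5% of Mtpap (Gm26865) and 12.6% of Twnk (Mrpl43), also on the opposite strand, and some other members had smaller overlaps. How many of their reads belong to the overlapping gene was not measured.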

How the data were processed

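The authors made cDNA with a low-input kit, sequenced it on an Illumina NextSeq, aligned reads to mm10 with STAR 2.6.1 and quantified genes against GENCODE M21 in Partek. Base calling used CASAVA 1.8.2 according to the submitters' processing notes. The deposited values are expected counts per gene as the authors quantified them. Per library 59.3 to 63.0% of them were whole within 0.01, and the rest were rounded before testing. Counting strand is not given in the sources used here. Culture time and RNA input differ between the labels and the methods and are not stated here.

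Upper-quartile factors were computed over all genes. The filter required a normalized mean of 1 or more and a normalized sum of 10 or more, which left 17650 of 22554 genes. These were tested with edgeR 4.0.16 (glmQLFit, glmQLFTest, R 4.3.3), two-sided, with Benjamini-Hochberg adjustment over all of them. The typical variation between libraries was 8.51%. Intervals of the main fit are 95% t intervals. Their standard error was worked back from the log2 fold change and the F statistic of the test. Alternatives used limma 3.58.1 and DESeq2 1.42.0. Near-identical transcripts were found with BLAST 2.17.0 (at least 150 nt at 95% identity). Lengths are of the principal transcript and of merged exons in M21. The fit was also run on simulated counts with known changes, and the outcome is not given here or used as a result. The values showed no pairing by replicate number (r = 0.016 over 12331 genes between the differences of replicates 1 and 2 in each group). This cannot show that the libraries were unpaired by design. The chi-square per gene between libraries was 6.51 within vehicle and 7.34 within 5D, above the 1 of pure counting error. Values per library were given for the members with the highest and lowest read level of each role, and other members given in full were chosen after their values were seen. Companion and mitochondrially encoded genes were named at an unadjusted p under 0.05 or as the largest difference of a class, and mt-Nd4l because it alone of the encoded RNAs missed that threshold. The members and lists were chosen with earlier results of these data known.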

Additional observations from a re-analysis of the deposited data

How the results depend on the processing

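No member passed the adjusted threshold under any alternative run, and the lowest adjusted p of a member was 0.254. Members with an unadjusted p under 0.05 and lower with 5D numbered 0 except for 1 with the replicate block (Tfb2m, unadjusted p = 0.0391, log2 fold change -0.27, edgeR) and 0 to 2 on leaving out a library. These were Fastkd2 without vehicle library 1, Tfb2m without vehicle library 2, and Tfb2m and Top1mt without 5D library 1. The block changed no other member, and since the values showed no pairing by replicate number it is a check only. DESeq2 gave no adjusted p for 17 members. Leaving out a library leaves a group with 1 library, assumed to vary like the other group.

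The median member log2 fold change was between -0.043 (without vehicle library 2) and -0.0047 on leaving out a library. TMM normalization turned Polg to 0.00081 and Fastk to 0.00097. On leaving out a library, 21 members changed sign, none with an adjusted p under 0.05. Their ranges were Clpp -0.087 to 0.088, Fastk -0.096 to 0.070, Fastkd1 -0.22 to 0.23, Fastkd2 -0.32 to 0.060, Lonp1 -0.031 to 0.13, Lrpprc -0.0017 to 0.054, Mterf3 -0.28 to 0.044, Mterf4 -0.19 to 0.043, Mtpap -0.037 to 0.23, Nrf1 -0.11 to 0.066, Pnpt1 -0.030 to 0.056, Polg -0.061 to 0.042, Polrmt -0.069 to 0.20, Pprc1 -0.12 to 0.042, Slirp -0.018 to 0.10, Ssbp1 -0.0037 to 0.077, Supv3l1 -0.096 to 0.048, Tefm -0.27 to 0.073, Tfb1m -0.19 to 0.015, Tk2 -0.14 to 0.074, Trmt10c -0.010 to 0.027.

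Calls over all genes, 678 lower and 618 higher at an unadjusted p, were 415 and 367 by DESeq2's Wald test, and on leaving out a library 580 to 861 lower and 380 to 1034 higher (1034 without vehicle library 1, 380 without 5D library 2). The 12 lower calls at an adjusted p were 35 with no filter, 19 with filterByExpr, 42 by DESeq2, 23 by limma-voom, 32 with the replicate block and 12 to 107 on leaving out a library (107 without vehicle library 1, 47 without vehicle library 2). The 5 higher calls were 11 with no filter, 16 by DESeq2, 9 by limma-voom, 9 with the replicate block and 3 to 73 on leaving out a library (73 without vehicle library 1, 32 without vehicle library 2, 3 without 5D library 2). The cause was not tested.

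Companion genes called lower at an unadjusted p, 3, were 1 by DESeq2 and 1 to 4 on leaving out a library (1 without vehicle library 2 or 5D library 1), and those called higher, 3, were 1 to 5, with 5 without vehicle library 1 and 1 without vehicle library 2 or 5D library 1. Mitochondrially encoded RNAs at an adjusted p, 3, were 8 with no filter, 9 by DESeq2, 6 by limma-voom, 10 with the replicate block and 2 to 9 on leaving out a library (8 and 9 without vehicle libraries 1 and 2, 5 without 5D library 1, 2 without 5D library 2), and their median was between -0.33 and -0.25. These settings for the encoded RNAs, the intervals of the members, the filters and left-out libraries for companion genes, and the adding of Gm1818 were chosen after seeing the data. The median of all genes stayed within 0.1 of 0 under every setting.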
